A study of Mus musculus with 117 samples.

Results

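The 38 Hox genes analysed here lie in the 4 mouse Hox clusters: 10 Hoxa genes on chromosome 6, 10 Hoxb genes on chromosome 11, 9 Hoxc genes on chromosome 15 and 9 Hoxd genes on chromosome 2. They were taken by name from the 21627 protein-coding genes of the autosomes and chromosome X. Each gene was given its annotated span with 2 kb added on either side, and the spans covered 1901 of 12313718 autosomal bins of 200 bp. Chromatin immunoprecipitation sequencing, in which an antibody pulls down DNA bound to a marked histone, was done on hepatocytes of female mice aged 12 weeks. The mice came from 9 inbred strains: C57BL/6J, 129S1/SvImJ, A/J, NOD/ShiLtJ, NZO/HlLtJ, DBA/2J, WSB/EiJ, CAST/EiJ and PWK/PhJ. The labels name no treatment and set the groups apart by strain. There were 117 libraries, 13 per strain: 4 histone marks (H3K4me1, H3K4me3, H3K27ac and H3K27me3) in 3 mice each, and 1 input without an antibody. The deposited files join the libraries of a strain in 1 segmentation, which gives every bin 1 of 14 numbered chromatin states. A strain is therefore 1 value, and every SD below is over the 9 strains and holds no error within a strain. Inbred strains share ancestry, so they are not fully independent. The mark content of the states is not given in the sources used here, and a state number is used only as a name.

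Hox genes encode homeodomain transcription factors that give cells their position along the axis from head to tail in the embryo. The order of the genes along a cluster follows the order in which they act along that axis: low-numbered (anterior) paralogs act toward the head, and high-numbered (posterior) paralogs toward the tail and in the limb, genital and hindgut buds. Genes of the same number in different clusters are paralogs and arose by duplication of an ancestral cluster. Outside the tissues where they act, the clusters are a textbook target of the Polycomb complexes, which place H3K27me3, while the trithorax group, which places H3K4 methylation, keeps them active where they are needed. The genes are grouped below as anterior (paralog groups 1 to 3), central (4 to 8) and posterior (9 to 13).

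The annotated spans were long at Hoxa3 (44009 bp), Hoxb3 (40830 bp) and Hoxd3 (36279 bp), which run over their neighbours. As a result 18.8% of the 1901 bins belonged to 2 or more Hox genes, and neighbouring genes share values. The cell type label was checked on marker genes. Of 10 hepatocyte markers, 9 had a bin of states 1, 2 or 3 in every strain and none had at least 50% of its bins in state 13. Such a bin in every strain was also found at 3 of 5 endothelial markers and at 12308 of all 21627 protein-coding genes. States 1, 2 or 3 covered 66.7% ± 6.60 of the bins of the hepatocyte markers (SD, n = 9 strains), against 1.13% ± 0.413 at Kupffer cell and leukocyte markers, 11.3% ± 1.66 at endothelial markers, 0.966% ± 0.584 at stellate cell and fibroblast markers and 4.31% ± 1.77 at bile duct markers.

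RefSeq (GRCm38.p6) start sites were listed for 22 of the 38 Hox genes, with 24 starts in all. The 5 promoters below run from 250 bases before to 50 bases after a start, 5′ to 3′ on the gene's strand. The first 4 are shown because the state at their start differed between strains and their genes had some of the lowest shares of state 13, and the last because Hoxb1 was in state 13 throughout. Capitals mark each CpG, the dinucleotide at which DNA is methylated.
Hoxa13, chr6:52260831-52261130, minus strand: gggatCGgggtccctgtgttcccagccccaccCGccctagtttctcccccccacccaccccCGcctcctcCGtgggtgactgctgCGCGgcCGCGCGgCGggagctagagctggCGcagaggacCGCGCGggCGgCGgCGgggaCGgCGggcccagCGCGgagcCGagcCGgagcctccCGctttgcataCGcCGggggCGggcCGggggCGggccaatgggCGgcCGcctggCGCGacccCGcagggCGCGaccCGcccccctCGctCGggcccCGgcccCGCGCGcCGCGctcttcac
Hoxa2, chr6:52164782-52165081, minus strand: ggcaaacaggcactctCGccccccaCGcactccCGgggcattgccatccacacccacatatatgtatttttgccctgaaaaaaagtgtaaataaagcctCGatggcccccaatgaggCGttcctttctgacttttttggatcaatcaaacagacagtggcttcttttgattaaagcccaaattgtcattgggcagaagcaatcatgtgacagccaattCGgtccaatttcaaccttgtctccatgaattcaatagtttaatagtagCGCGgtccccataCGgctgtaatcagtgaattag
Hoxd13, chr2:74667975-74668274, plus strand: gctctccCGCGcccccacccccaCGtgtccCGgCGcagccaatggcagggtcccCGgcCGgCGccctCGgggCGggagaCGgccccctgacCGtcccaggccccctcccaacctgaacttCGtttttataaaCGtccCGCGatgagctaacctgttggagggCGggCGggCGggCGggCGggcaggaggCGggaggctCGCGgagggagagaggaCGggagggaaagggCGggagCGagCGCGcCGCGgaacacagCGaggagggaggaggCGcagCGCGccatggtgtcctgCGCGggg
Hoxa6, chr6:52208623-52208922, minus strand: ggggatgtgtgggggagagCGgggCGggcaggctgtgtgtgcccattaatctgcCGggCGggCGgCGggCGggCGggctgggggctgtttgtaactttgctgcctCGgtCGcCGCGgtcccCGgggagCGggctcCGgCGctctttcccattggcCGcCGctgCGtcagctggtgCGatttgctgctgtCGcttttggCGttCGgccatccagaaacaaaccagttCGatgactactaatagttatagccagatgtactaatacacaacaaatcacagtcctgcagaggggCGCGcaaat
Hoxb1, chr11:96365508-96365807, plus strand: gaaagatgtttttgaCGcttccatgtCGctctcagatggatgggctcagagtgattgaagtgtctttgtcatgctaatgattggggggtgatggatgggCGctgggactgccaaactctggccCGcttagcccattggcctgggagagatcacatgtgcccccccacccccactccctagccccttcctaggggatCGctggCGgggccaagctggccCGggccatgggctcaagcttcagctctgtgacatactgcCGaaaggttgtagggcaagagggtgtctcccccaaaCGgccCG
The promoters of Hoxa13 and Hoxd13 were dense in CpG, with 45 and 37 in 300 bases and a GC content of 81.0% and 74.3%. The promoter of Hoxa6 held 26. Those of Hoxa2 and Hoxb1 held 9 and 10, although Hoxa2 was among the genes with the lowest share of state 13 and Hoxb1 was entirely in it. Over the 24 listed Hox promoters the number of CpG ran from 4 to 45 with a median of 14.5, beside a median of 13 over 21044 promoters of protein-coding genes. The median GC content was 57.7% beside 56.7%. The letters TATAAA, on either strand, were in 4 of 24 Hox promoters (16.7%) and in 12.7% of all promoters. The letters CCAAT, on either strand, were in 15 of 24 (62.5%) and in 38.5% of all promoters. These are counts of letters and say nothing of a bound factor.

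State 13 covered most of every cluster in every strain. Over all Hox spans it took 84.0% ± 2.39 of the bins (SD, n = 9 strains), from 80.4% in PWK/PhJ to 87.6% in A/J, while it took 11.1% ± 1.36 of the autosomes. States 10 or 12 took 12.4% ± 1.85 of the Hox bins and 0.231% ± 0.0425 of the autosomes. States 5, 7 or 11 took 3.54% ± 2.59 and 0.104% ± 0.0178. These 6 states together made up 99.9% ± 0.182 of the Hox bins and 11.4% ± 1.38 of the autosomes. States 1, 2 or 3, which cover most of the hepatocyte markers, were in 0 Hox bins in every strain. State 14, the most widespread on the autosomes, was in 17 Hox bins summed over the strains, and state 6 in 1. The Hox spans are 0.0154% of the autosomal bins, yet they held 0.836% ± 0.0628 of all autosomal bins of states 10 or 12 and 0.119% ± 0.0156 of those of state 13.

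**Figure D1:**
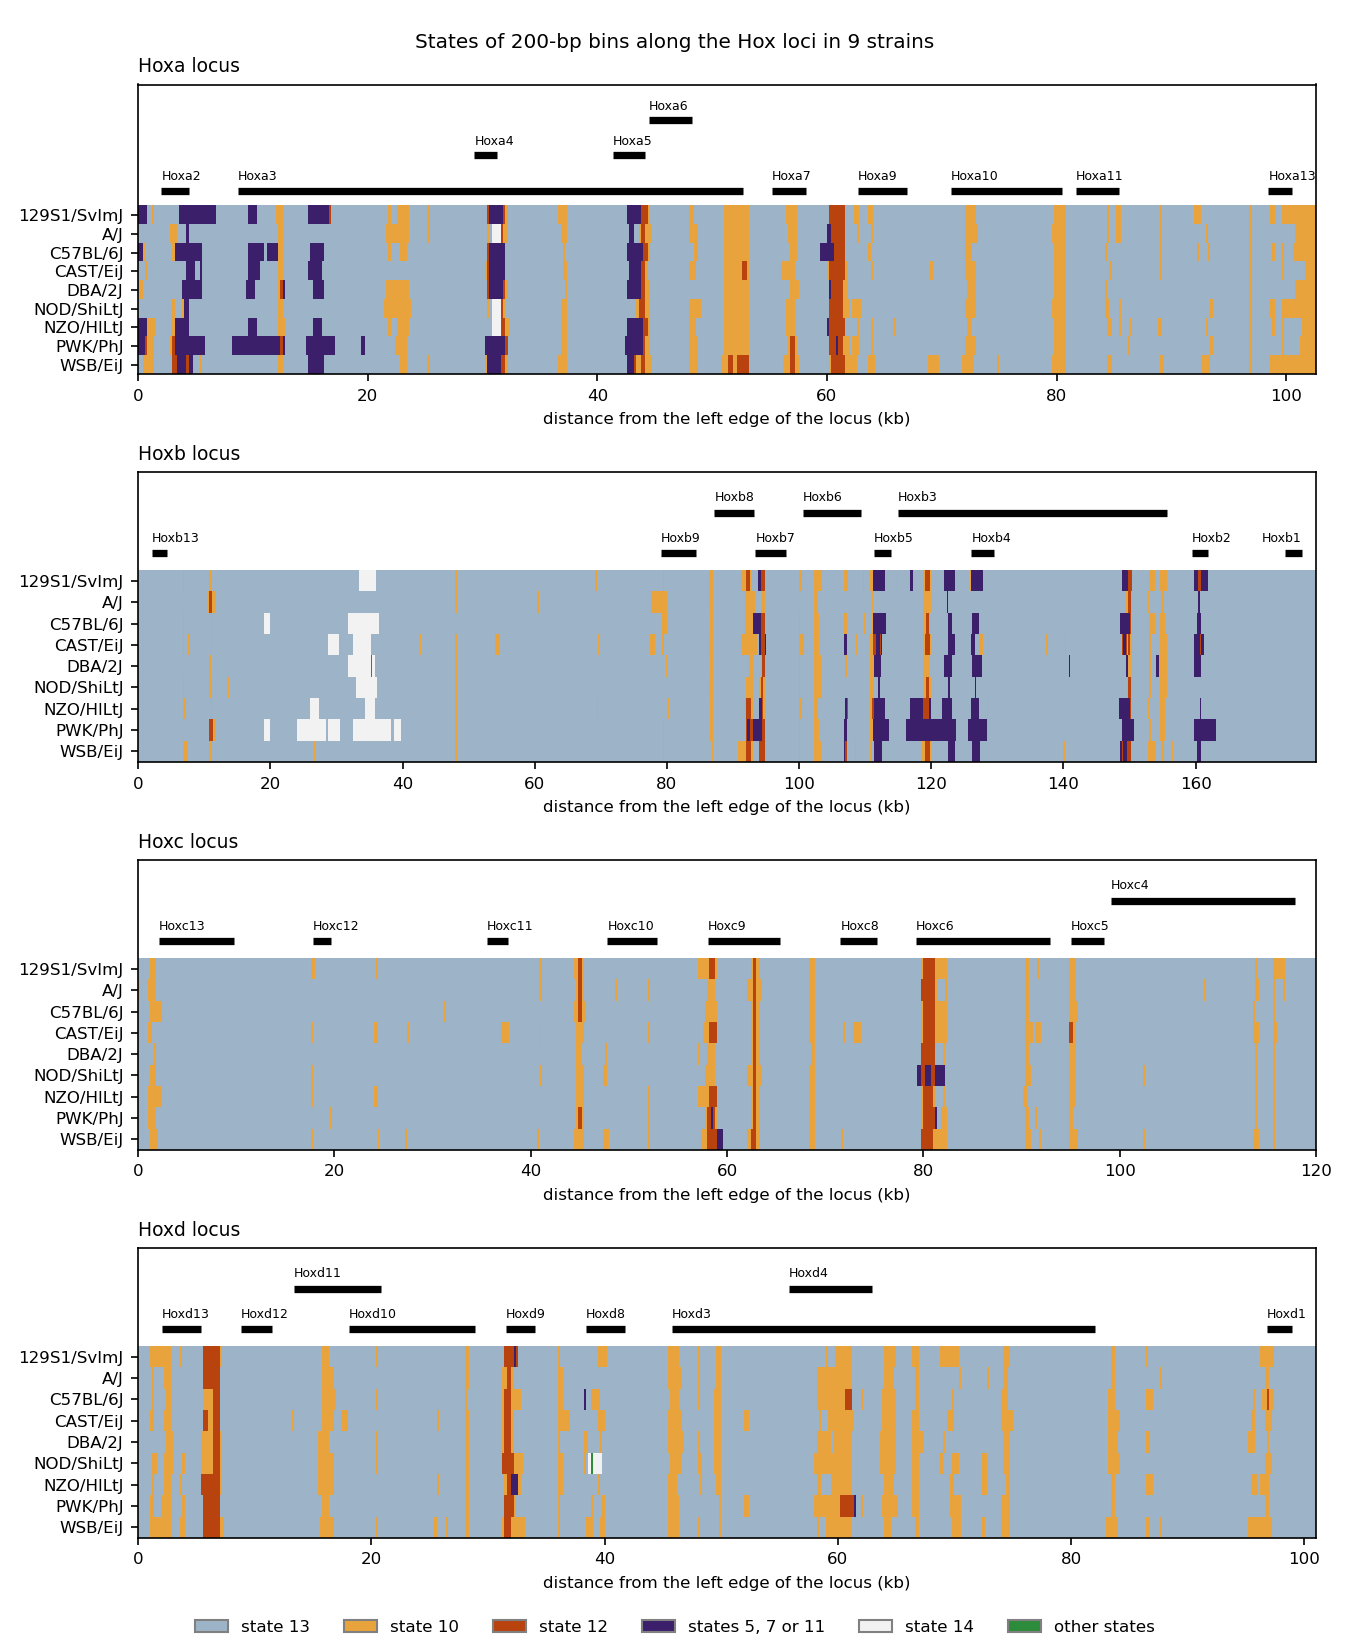
State of every 200-bp bin along the 4 Hox loci, with 1 row per strain, black bars for the genes and distance from the left edge of the locus in kb on the horizontal axis. State 13 fills 77.1% of the Hoxa spans, 85.0% of Hoxb, 91.2% of Hoxc and 82.3% of Hoxd, states 10 and 12 form short stripes, some of them at the same place in every strain, and states 5, 7 or 11 lie mainly at anterior and central Hoxa and Hoxb genes.

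The clusters did not share 1 makeup. In the members' spans, state 13 covered 77.1% ± 4.19 of Hoxa bins (SD, n = 9 strains), 85.0% ± 4.90 of Hoxb, 91.2% ± 1.81 of Hoxc and 82.3% ± 2.37 of Hoxd. For a test, each cluster was taken as 1 unbroken locus from its first to its last listed gene: chr6:52160417-52262880 for Hoxa, chr11:96192316-96370254 for Hoxb, chr15:102919131-103038856 for Hoxc and chr2:74666225-74767142 for Hoxd. The share of state 13 in the Hoxa locus was 82.8% in CAST/EiJ, 82.1% in A/J, 81.5% in DBA/2J, 80.5% in NOD/ShiLtJ, 79.5% in NZO/HlLtJ, 78.2% in C57BL/6J, 74.3% in 129S1/SvImJ, 73.3% in WSB/EiJ and 72.3% in PWK/PhJ. In the Hoxb locus it ran from 78.0% in PWK/PhJ to 93.9% in A/J. In the Hoxc locus it ran from 89.0% in WSB/EiJ to 94.5% in DBA/2J, and in the Hoxd locus from 80.6% in WSB/EiJ to 87.3% in A/J. The Hoxc range lay above the Hoxa and Hoxd ranges with no overlap, while the Hoxb range overlapped all 3 others.

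Each pair of loci was compared within strains by a two-sided exact permutation test that flips the sign of each strain's difference, adjusted by the Benjamini-Hochberg method over the 6 pairs; the smallest unadjusted p that 9 strains allow is 0.00391. The Hoxa locus had a lower share of state 13 than Hoxb by 10.4 percentage points (SD 4.03), lower in 9 of 9 strains (exact permutation test, adjusted p = 0.00781). It was lower than Hoxc by 13.2 points (SD 4.10) in 9 of 9 strains (exact permutation test, adjusted p = 0.00781) and lower than Hoxd by 5.44 points (SD 4.16) in 8 of 9 strains (exact permutation test, adjusted p = 0.0117). Hoxc was higher than Hoxd by 7.74 points (SD 1.97) in 9 of 9 strains (exact permutation test, adjusted p = 0.00781). Hoxb was higher than Hoxd by 4.96 points (SD 5.33) in 8 of 9 strains (exact permutation test, adjusted p = 0.0375), with PWK/PhJ the exception. Hoxb and Hoxc differed by 2.79 points (SD 5.14), with Hoxb lower in 6 of 9 strains, and did not pass (exact permutation test, adjusted p = 0.0938). The difference between Hoxb and Hoxd no longer passed when any strain but PWK/PhJ was left out (exact permutation test, adjusted p from 0.0547 to 0.0656), and that between Hoxa and Hoxd ended with bins of 1000 bp (exact permutation test, adjusted p = 0.0586). Over the members' spans in place of whole loci, Hoxb was lower than Hoxc by 6.17 points and passed (exact permutation test, adjusted p = 0.0117), while Hoxb was higher than Hoxd by 2.79 points and did not (exact permutation test, adjusted p = 0.172). With states 10, 12 and 13 counted as 1, Hoxa was lower than Hoxb by 0.329 points (exact permutation test, adjusted p = 0.863), Hoxc was lower than Hoxd by 0.0138 points (exact permutation test, adjusted p = 0.938) and Hoxb was lower than Hoxd by 5.80 points (exact permutation test, adjusted p = 0.0117).

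States 10 or 12 set Hoxa and Hoxd apart from Hoxb and Hoxc. They covered 15.3% ± 3.55 of the Hoxa locus (SD, n = 9 strains) and 16.02% ± 1.98 of the Hoxd locus, against 5.26% ± 1.58 of Hoxb and 8.26% ± 1.80 of Hoxc. Hoxa was higher than Hoxb by 10.1 points and than Hoxc by 7.08 points, each in 9 of 9 strains (exact permutation test, adjusted p = 0.00469 for each). Hoxd was higher than Hoxb by 10.8 points and than Hoxc by 7.76 points, again in 9 of 9 strains (exact permutation test, adjusted p = 0.00469 for each). Hoxc was higher than Hoxb by 3.00 points in 9 of 9 strains (exact permutation test, adjusted p = 0.00469), but over the members' spans alone this difference was 0.237 points and did not pass (exact permutation test, adjusted p = 0.613). Hoxa and Hoxd differed by 0.683 points (SD 3.19), with Hoxa lower in 5 of 9 strains, and did not pass (exact permutation test, adjusted p = 0.520). States 10 and 12 were singled out in earlier results of these data, so their choice is not independent of the values.

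Gene by gene, 35 of 38 Hox genes had at least 50% of their bins in state 13 in every strain, where 5.88% of all 21627 protein-coding genes did, and 2.63% of autosomal ones. None of the 38 had a bin of states 1, 2 or 3 in every strain, where 56.9% of all genes did. A bin of state 10 or 12 in every strain was found at 28 of 38 Hox genes, beside 10.5% of all genes. These 28 were all 10 Hoxa genes, 5 of 10 Hoxb, 5 of 9 Hoxc and 8 of 9 Hoxd. A bin of states 5, 7 or 11 in at least 1 strain was found at 20 of 38, beside 22.1% of all genes. The 20 were 7 of 10 Hoxa genes, 7 of 10 Hoxb, 2 of 9 Hoxc and 4 of 9 Hoxd. A gap of at least 50 points between the highest and the lowest strain in state 13 was found at Hoxa2 alone, 1 of 38 beside 8.76% of all genes, and without PWK/PhJ at none. The median over the 38 genes of the mean share of state 13 was 83.6%, beside 0% over all genes.

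**Figure D2:**
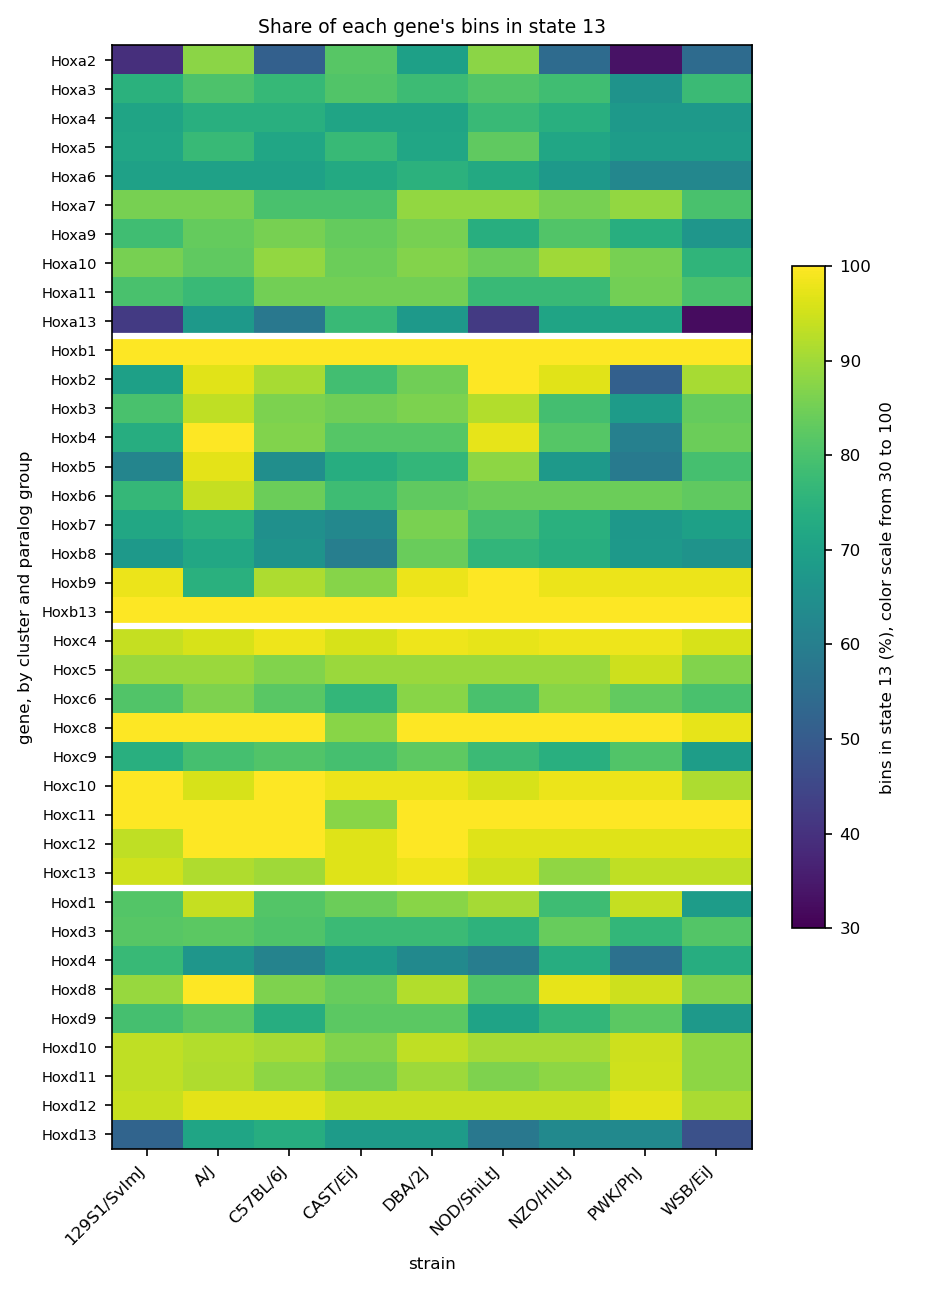
Share of each Hox gene's bins in state 13 (color, from 30% to 100%) in each strain, with genes in rows by cluster and paralog number. Hoxa2, Hoxa13 and Hoxd13 hold the darkest cells, down to 32.3% at Hoxa13 in WSB/EiJ, and Hoxb1 and Hoxb13 are at 100% in all 9 strains.

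The lowest shares of state 13 were at both ends of the Hoxa cluster and at the 5′ end of Hoxd. Hoxa13 (chr6:52258853-52260880), which acts in the digits, the hindgut and the genital bud, had the lowest mean, 58.8% ± 16.1 (SD, n = 9 strains). Its share was 32.3% in WSB/EiJ, 41.9% in 129S1/SvImJ and NOD/ShiLtJ, 58.1% in C57BL/6J, 67.7% in A/J and DBA/2J, 71.0% in NZO/HlLtJ and PWK/PhJ, and 77.4% in CAST/EiJ. The rest of the Hoxa13 bins were in states 10 or 12 in every strain, from 22.6% in CAST/EiJ to 67.7% in WSB/EiJ, and none were in states 5, 7 or 11.

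Hoxd13 (chr2:74668225-74671603), the paralog that acts with Hoxa13 in digit formation, had a mean of 62.9% ± 8.77 over its padded span. The padding holds chr2:74671801-74673200, 1400 bp outside the gene that were in states 10 or 12 in all strains. With no padding the share of state 13 at Hoxd13 was higher. In the padded span it was lowest in WSB/EiJ (47.4%), 129S1/SvImJ (52.6%) and NOD/ShiLtJ (57.9%), and highest in C57BL/6J (73.7%). The same 3 strains were thus the lowest at both genes, which lie on different chromosomes. Over the autosomes, too, these strains had the highest shares of states 10 or 12: 0.307% in WSB/EiJ, 0.264% in NOD/ShiLtJ and 0.250% in 129S1/SvImJ. That these 3 strains stood first is thus not particular to the 2 genes, and its cause was not tested. The order of the other strains was not the same. CAST/EiJ came next on the autosomes, at 0.242%, but had the lowest share of states 10 or 12 at Hoxa13 (22.6%). As at Hoxa13, all other bins of Hoxd13 were in states 10 or 12. The other 2 members of the group did not share this: Hoxb13, which acts in the prostate and the tail end of the spinal cord, was at 100% in every strain, and Hoxc13, a regulator of hair keratins, was at 93.5% ± 3.17.

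Hoxa2 (chr6:52162417-52164831), which patterns the second pharyngeal arch and the hindbrain, had a mean of 62.3% ± 20.4 and the widest spread between strains of the 38. Its share of state 13 was 33.3% in PWK/PhJ, 39.4% in 129S1/SvImJ, 51.5% in C57BL/6J, 54.5% in NZO/HlLtJ and WSB/EiJ, 69.7% in DBA/2J, 81.8% in CAST/EiJ and 87.9% in A/J and NOD/ShiLtJ. In 6 strains more of the other bins were in states 5, 7 or 11 than in states 10 or 12. States 5, 7 or 11 covered 57.6% of Hoxa2 in 129S1/SvImJ and 48.5% in PWK/PhJ but 3.03% in A/J and 6.06% in NOD/ShiLtJ. In WSB/EiJ they covered 18.2% and states 10 or 12 covered 27.3%, in A/J states 10 or 12 covered 9.09%, and in NOD/ShiLtJ both covered 6.06%. Hoxa13, Hoxd13 and Hoxa2 are the 3 genes that missed the 50% mark in a strain.

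Hoxd4 and Hoxa6, both of the central paralog groups, followed in the order of low shares. Hoxd4 had 66.7% ± 7.18 of its bins in state 13, from 56.1% in PWK/PhJ through a median of 66.7% to 77.2% in 129S1/SvImJ, and 33.1% in states 10 or 12. Hoxa6 had 69.2% ± 4.33, from 62.5% in PWK/PhJ and WSB/EiJ through a median of 70.0% to 75% in DBA/2J. Its remaining bins were split between states 10 or 12 (18.6%) and states 5, 7 or 11 (12.2%). Hoxb8, known for its role in spinal and microglial development, had 70.4% ± 6.98, from 60.0% in CAST/EiJ through a median of 68.0% to 84.0% in DBA/2J. The means of these 3 genes differed by less than the SD of any of them over strains.

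At the other end, Hoxb1, which sets up a single segment of the hindbrain, and Hoxb13 were in state 13 in every bin of every strain. Hoxc11 was at 100% in 8 strains and at 87.5% in CAST/EiJ, where the other bins were in states 10 or 12. Hoxc8 (98.3%), Hoxc12 (97.4%), Hoxc10 (97.2%), Hoxc4 (96.8%), Hoxd12 (94.8%), Hoxb9 (93.6%), Hoxd10 (91.1%) and Hoxd8 (90.1%) also had means above 90%. Together with Hoxc13, these make 12 of the 38 genes, and 6 of the 12 are Hoxc genes. The middle of the order was held by Hoxc5 (89.5%), Hoxd11 (89.5%), Hoxa10 (84.9%), Hoxa7 (84.8%), Hoxb2 (84.5%), Hoxd1 (84.4%), Hoxb3 (83.8%), Hoxb6 (83.5%), Hoxb4 (83.0%), Hoxc6 (82.6%), Hoxa11 (81.4%), Hoxd3 (79.7%), Hoxa9 (79.1%), Hoxc9 (77.6%), Hoxd9 (77.5%) and Hoxa3 (77.1%). Hoxb5 (74.2%), Hoxa5 (73.3%), Hoxb7 (72.4%) and Hoxa4 (72.0%) were lower. Paralogs did not keep to 1 level: within group 4 the mean share ran from 66.7% at Hoxd4 to 96.8% at Hoxc4, and within group 13 from 58.8% to 100%.

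Part of the bins in states 10 or 12 were in these states in every strain. Bins that were in state 10 or 12 in all 9 strains formed 10 runs in the Hoxa locus, 5 in Hoxb, 10 in Hoxc and 14 in Hoxd, with a median length of 400 bp in each cluster. They added up to 6.60 kb in Hoxa, 1.80 kb in Hoxb, 4.20 kb in Hoxc and 7.40 kb in Hoxd. That is 6.43%, 1.01%, 3.5% and 7.33% of the loci, beside mean shares of states 10 or 12 of 15.3%, 5.26%, 8.26% and 16.02%, so most such bins were not in these states in every strain. The longest was 2200 bp, at chr6:52211401-52213600, around the listed start of Hoxa3. A run of 1000 bp at chr6:52240201-52241200 held a listed start of Hoxa10, and one of 400 bp at chr6:52204401-52204800 that of Hoxa5. In Hoxd, runs of 600 bp held listed starts of Hoxd11, Hoxd9 and Hoxd3. A run of 1400 bp lay between genes at chr2:74671801-74673200, just past the right end of Hoxd13, and one of the same length lay in Hoxd4 at chr2:74726001-74727400. In Hoxc the longest, of 1000 bp, lay in Hoxc9 at chr15:102981401-102982400. These runs were picked out for being shared by all strains, so their counts are a description.

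At the listed Hox starts, most of them of Hoxa and Hoxd genes, state 13 dipped and state 10 was more frequent. Starts were listed for 9 of 10 Hoxa genes, 3 of 10 Hoxb, 1 of 9 Hoxc and 9 of 9 Hoxd, so 20 of the 24 starts are Hoxa or Hoxd. Of the 24 start bins, 56.5% ± 7.54 were in state 13 (SD, n = 9 strains), while 90.7% ± 5.81 were 0.6 kb before the start and 93.5% ± 3.03 were 2 kb into the gene. State 10 was in 30.6% ± 6.25 of the start bins and state 12 in 8.33% ± 2.95. States 5, 7 or 11 were in 4.63% ± 3.26 at the start and in 9.26% ± 5.42 at 0.6 kb into the gene. Of the 20 Hoxa and Hoxd start bins, 50% ± 7.50 were in state 13 and 36.7% ± 7.50 in state 10 (SD, n = 9 strains). Of the 4 Hoxb and Hoxc starts, none was in state 10 or 12 in any strain, and 3 were in state 13 in all 9. State 3 was in none of the Hox start bins, while it was in 38.2% of the start bins of all 21044 promoters, of which state 13 took 11.9% and state 10 took 2.37%. Away from the start, at 2 kb into the gene, state 10 was in 0.710% of bins over all promoters and in 6.02% ± 3.03 over the Hox starts. In both sets state 10 was more frequent at the start than 2 kb inside, and state 13 was less frequent. Over all promoters state 13 took 15.7% of bins 0.6 kb before the start and 17.1% at 2 kb inside, so a dip at the start is not particular to Hox genes.

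**Figure D3:**
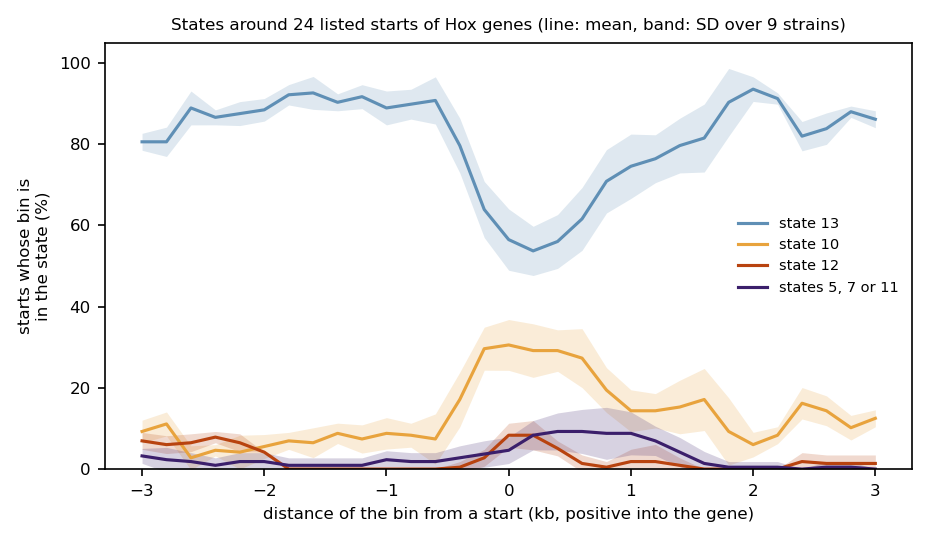
Percentage of the 24 listed Hox starts whose bin is in each state, against distance from the start in kb, with lines for the mean over strains and bands for the SD, where 20 of the 24 starts belong to Hoxa or Hoxd genes. State 13 drops from 90.7% at 0.6 kb before the start to 56.5% at the start, where state 10 reaches 30.6%.

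Single starts were often in the same state in all strains. Of the 24 starts, 12 had 1 state throughout: 8 were in state 13 in every strain, among them those of Hoxa7, Hoxa9, Hoxb1, Hoxb8, Hoxc4, Hoxd12 and Hoxd4. The start of Hoxa5 was in state 12 in all 9 strains, and those of Hoxd3, the upstream of the pair at Hoxa10 and the downstream of the pair at Hoxd11 were in state 10 in all 9. The start of Hoxa3 was in state 10 in 7 strains and state 12 in 2, and that of Hoxd9 in state 12 in 7 and state 10 in 2. The starts of Hoxa13 and Hoxd13, whose promoters are printed above, were in state 13 in 6 strains and state 10 in 3: 129S1/SvImJ and WSB/EiJ for both genes, with NOD/ShiLtJ at Hoxa13 and PWK/PhJ at Hoxd13. The start of Hoxa6 was in state 10 in 7 strains and in state 13 in C57BL/6J and DBA/2J. That of Hoxa11 was in state 13 in 5 strains and state 10 in 4, and that of Hoxd1 in state 10 in all but DBA/2J. States 5, 7 or 11 were found at 2 starts, those of Hoxa2 in 6 strains and Hoxb4 in 4.

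States 5, 7 or 11 varied widely between strains and lay mainly in Hoxa and Hoxb. They were singled out after the segmentations had been seen. In the Hoxa spans their share was 15.2% in PWK/PhJ, 10.7% in C57BL/6J, 9.64% in 129S1/SvImJ, 6.64% in DBA/2J, 6.00% in CAST/EiJ, 5.57% in NZO/HlLtJ, 4.71% in WSB/EiJ, 0.857% in A/J and 0.428% in NOD/ShiLtJ. In the Hoxb spans it was 19.9% in PWK/PhJ, 9.16% in NZO/HlLtJ, 8.57% in 129S1/SvImJ, 6.77% in C57BL/6J, 5.58% in DBA/2J, 4.98% in WSB/EiJ, 4.78% in CAST/EiJ, 0.598% in NOD/ShiLtJ and 0.398% in A/J. PWK/PhJ was the highest and A/J and NOD/ShiLtJ the lowest in both clusters, although the clusters are on different chromosomes. In the Hoxc spans the share was 0.347% ± 0.691 and in the Hoxd spans 0.147% ± 0.221, and these means rested on 1 strain each: without NOD/ShiLtJ the Hoxc mean was 0.130%, and without NZO/HlLtJ the Hoxd mean was 0.0830%.

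Over the autosomes as a whole the order of the strains depended on the state. There the share of states 5, 7 or 11 was lowest in A/J (0.0679%) and highest in C57BL/6J (0.121%), with NOD/ShiLtJ at 0.111% and PWK/PhJ at 0.113%. Taken singly, state 5 was highest in PWK/PhJ (0.0380%) and lowest in A/J (0.0138%). State 7 was highest in C57BL/6J (0.0454%) and PWK/PhJ (0.0452%) and lowest in A/J (0.0209%) and NOD/ShiLtJ (0.0232%). State 11 was highest in NOD/ShiLtJ (0.0688%) and lowest in PWK/PhJ (0.0303%). In the Hox spans, too, PWK/PhJ was highest in states 5 and 7, with 4.07% and 10.5% of Hoxa bins and 5.58% and 11.4% of Hoxb bins, and not in state 11, with 0.642% and 2.99%. At the hepatocyte markers PWK/PhJ and NOD/ShiLtJ both had 0% in these states. At the endothelial markers PWK/PhJ was highest (3.03%), and NOD/ShiLtJ (0.400%) and A/J (0.571%) were lowest. The highest strain was C57BL/6J at Kupffer cell and leukocyte markers, 129S1/SvImJ at stellate cell and fibroblast markers and NZO/HlLtJ at bile duct markers. A/J was lowest, or shared the lowest value, at each of these. Library depth and mouse-to-mouse differences within a strain are not in the files, and their part in the Hox values was not tested.

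**Figure D4:**
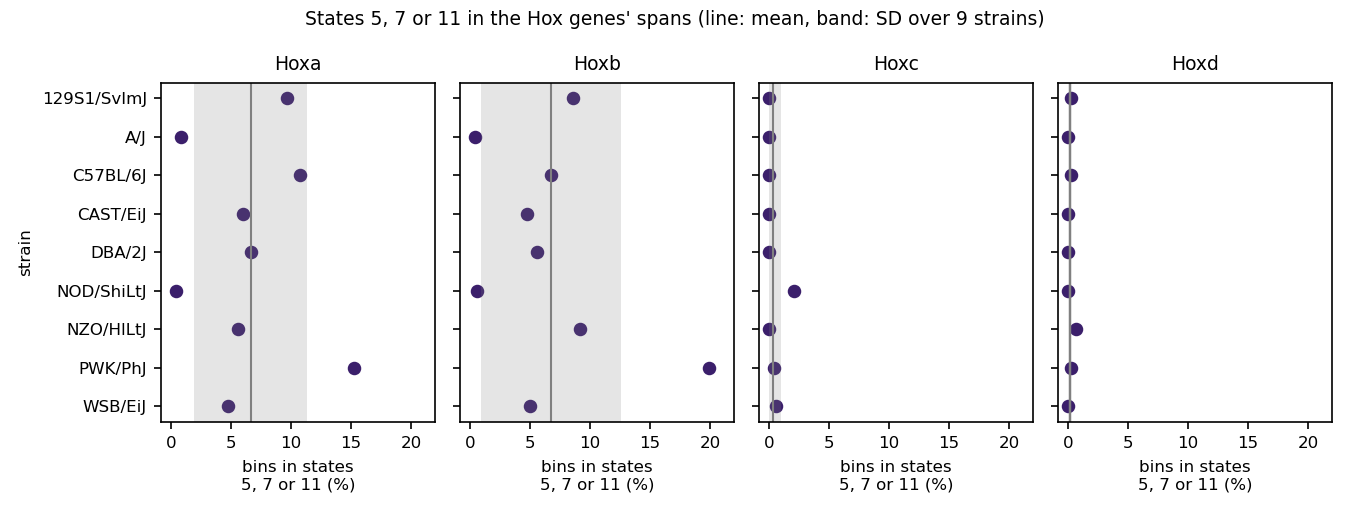
Percentage of the bins of each cluster's Hox genes in states 5, 7 or 11, with 1 point per strain, a line for the mean and a band for the SD over 9 strains. PWK/PhJ is at 15.2% in Hoxa and 19.9% in Hoxb, A/J and NOD/ShiLtJ are below 1% in both, and in Hoxc and Hoxd no strain exceeds 2.08%.

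Within Hoxa and Hoxb, states 5, 7 or 11 covered more of the anterior and central genes than of the posterior ones. They were found at 4 of 5 anterior, 9 of 9 central and 1 of 6 posterior genes of these clusters, beside 22.1% of all genes, and the median shares were 9.28%, 12.2% and 0%. The exception among anterior genes was Hoxb1, and the posterior gene was Hoxa9, with 1 bin in PWK/PhJ. The anterior Hoxa genes, Hoxa2 and Hoxa3, had 11.03% ± 7.84 of their bins in these states (SD, n = 9 strains), from 0.730% in NOD/ShiLtJ to 25.5% in PWK/PhJ. The anterior Hoxb genes had 8.85% ± 8.21, from 0.690% in A/J and NOD/ShiLtJ to 27.9% in PWK/PhJ. The span of Hoxa3 holds all of the central genes Hoxa4, Hoxa5 and Hoxa6, and that of Hoxb3 holds all of Hoxb4. Anterior and central shares and counts thus rest in part on the same bins. The anterior values are not values of anterior chromatin alone, and anterior and central genes were not told apart. Hoxa2 and Hoxb2 overlap no central gene. The highest mean shares were at Hoxa2 (27.6%), Hoxb5 (18.0%), Hoxb4 (14.9%), Hoxa4 (14.7%), Hoxb2 (14.5%), Hoxa5 (13.97%) and Hoxa6 (12.2%). Among the 4239 autosomal genes with any such bin, these ranked 18, 60, 88, 92, 97, 107 and 143. Of the 14 Hoxa and Hoxb genes with these states, 12 had their highest share in PWK/PhJ: 5 of 7 Hoxa genes and 7 of 7 Hoxb genes. Spans of neighbours among these genes overlap and come from the same PWK/PhJ segmentation, so the genes are not separate observations. Hoxa2 was highest in 129S1/SvImJ and Hoxa7 in C57BL/6J.

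Bins in states 5, 7 or 11 in at least 5 strains formed 6 runs in Hoxa and 6 in Hoxb, and none in Hoxc or Hoxd. One lay over the Hoxa2 promoter printed above, at chr6:52164001-52165400. All of its bins were in these states in 129S1/SvImJ, C57BL/6J and PWK/PhJ, 85.7% in DBA/2J, 71.4% in WSB/EiJ, 57.1% in CAST/EiJ and NZO/HlLtJ, 28.6% in NOD/ShiLtJ and 14.3% in A/J. The start bin itself was in state 11 in 129S1/SvImJ, C57BL/6J, CAST/EiJ, DBA/2J and WSB/EiJ, in state 5 in PWK/PhJ, and in state 13 in A/J, NOD/ShiLtJ and NZO/HlLtJ. In Hoxb, runs of 1200 bp at chr11:96303601-96304800 in Hoxb5 and of 1000 bp at chr11:96318401-96319400 in Hoxb4 were in these states in at least 1 bin of 8 strains, A/J being the exception.

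One interval split the strains between a pair of states at Hoxa4 (chr6:52189682-52191703). The 4 bins of chr6:52191201-52192000, which hold the right end of the Hoxa4 gene, were in state 7 in 129S1/SvImJ, C57BL/6J, CAST/EiJ, DBA/2J, PWK/PhJ and WSB/EiJ. The same 4 bins were in state 14 in A/J, NOD/ShiLtJ and NZO/HlLtJ. No strain was in state 13 in these bins, and no other bin of the Hoxa locus was in state 14 in any strain. The interval was singled out after its states had been seen.

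Most Hox genes differed between strains by less than the median gene did. The percentage of bins in different states, averaged over the 36 pairs of strains, had a median of 12.8% over the 38 Hox genes, beside a median of 19.7% and quartiles of 10.9% and 28.9% over all protein-coding genes. Of the 38, 28 lay below the median of all genes and 10 at or above it. The clusters differed in this: the median was 17.2% over Hoxa genes, 19.2% over Hoxb, 3.36% over Hoxc and 12.7% over Hoxd. Those of Hoxa and Hoxb were thus nearer to the median of all genes. Over the whole of the Hox spans, 71.9% of bins had 1 state in all 9 strains, beside 60.8% of all autosomal bins, 21.5% had 2 and 6.68% had more. Hoxc was the most alike between strains (83.8% of bins with 1 state), followed by Hoxd (73.9%), Hoxb (67.7%) and Hoxa (62.1%). Of bins in state 13 in at least 1 strain, 73.3% of those in Hox spans were in 1 state in all 9 strains, beside 9.87% of those on the autosomes; choosing bins by a single strain brings in bins where strains differ.

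Hoxa2 had the highest difference, 46.7% of bins, from 12.1% in the closest pair to 66.7% in the farthest. Hoxb5, Hoxb8, Hoxb7 and Hoxb2 followed with 27.9%, 23.7%, 23.6% and 21.5%, and Hoxb1 and Hoxb13 were at 0%. At Hoxb5 the share of state 13 ran from 58.8% in PWK/PhJ through a median of 73.5% to 97.1% in A/J, and states 5, 7 or 11 ran from 0% in A/J to 35.3% in PWK/PhJ. At Hoxb2, which acts in the hindbrain, state 13 ran from 51.5% in PWK/PhJ through a median of 90.9% to 100% in NOD/ShiLtJ, and PWK/PhJ stood apart from 129S1/SvImJ, the next lowest, at 69.7%. At Hoxb7 it ran from 62.8% in CAST/EiJ through a median of 72.1% to 86.0% in DBA/2J. Hoxb7 and Hoxb8 overlap, so their values are not separate observations.

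**Figure D5:**
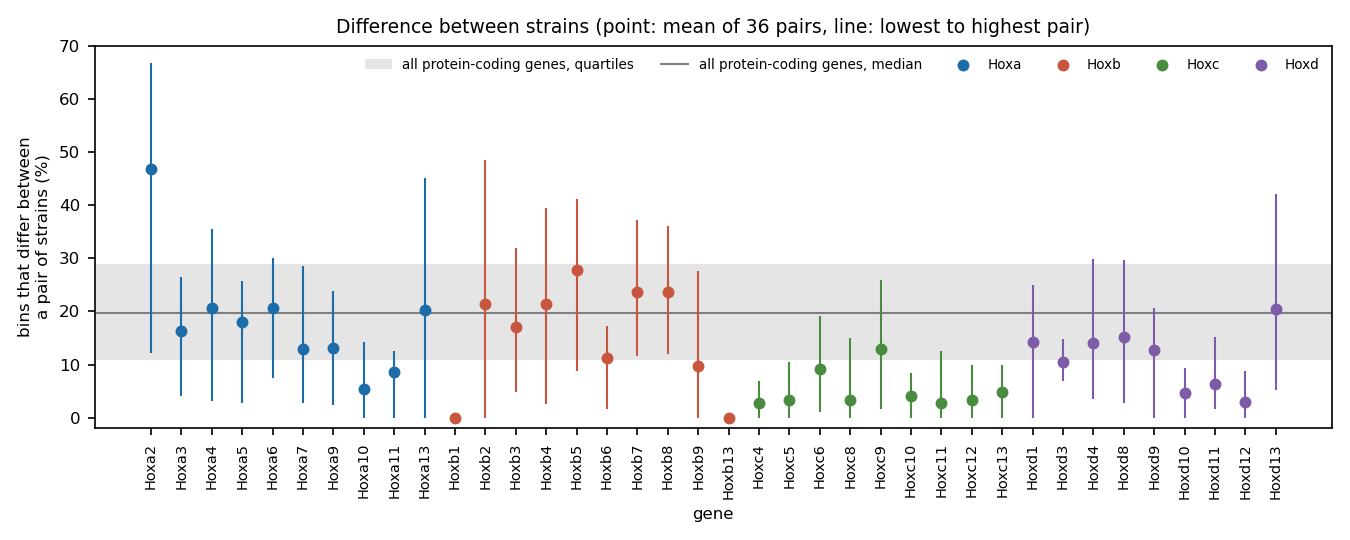
Percentage of bins whose state differs between 2 strains for each Hox gene, with points for the mean of 36 pairs, lines from the lowest to the highest pair, and a grey line and band for the median and quartiles of all protein-coding genes. Hoxa2 stands at 46.7%, above the band, and 28 of 38 genes lie below the grey line at 19.7%.

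The kind of exchange differed by cluster. A swap between states 10 and 13 made up 83.0% of all disagreements between strains in Hoxd and 73.8% in Hoxc, but 44.1% in Hoxa and 28.3% in Hoxb. A swap between states 7 and 13 made up 19.4% in Hoxa and 24.8% in Hoxb, and one between states 11 and 13 made up 9.43% and 15.7%. The closest pair of strains over all Hox spans was A/J and NOD/ShiLtJ, with 7.52% of bins different, and the farthest was PWK/PhJ and WSB/EiJ with 16.7%. A strain had a state of its own, with the other 8 alike, in 182 of the 1901 bins. Of these, 48 belonged to PWK/PhJ, 37 to WSB/EiJ and 33 to CAST/EiJ, and each of the remaining 6 strains had from 9 to 14. The same count over the autosomes is not given here, so whether this order is particular to the Hox spans cannot be told.

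States 5, 7 and 10 to 13 together formed long stretches over the clusters. Their longest unbroken stretch over each locus, a measure chosen after seeing the segmentations, was 187 kb ± 58.6 at Hoxa, 196 kb ± 62.5 at Hoxb, 269 kb ± 61.5 at Hoxc and 172 kb ± 25.1 at Hoxd (SD, n = 9 strains). The loci themselves are 102 kb, 178 kb, 120 kb and 101 kb long. At Hoxb the mean was raised by A/J and WSB/EiJ, the 2 strains without a break (319 kb and 288.6 kb), while 6 strains had from 158.2 kb to 163.2 kb, less than the locus. The stretch covered the whole locus in 9 strains at Hoxc, 8 at Hoxd, 6 at Hoxa and 2 at Hoxb. At Hoxa the 3 strains with a break were A/J, NOD/ShiLtJ and NZO/HlLtJ, at the Hoxa4 interval. At Hoxb the break lay between Hoxb13 and Hoxb9, outside the spans of the Hox genes, where state 14 was found in 7 strains and not in A/J or WSB/EiJ. At Hoxd it was NOD/ShiLtJ alone, with 1.20 kb of states 6 and 14 inside Hoxd8. The right edge of the stretch varied over 24.8 kb between strains at Hoxc and 25.6 kb at Hoxd, and the left edge over 147 kb and 76.2 kb, where the Hoxd value rested on the break in NOD/ShiLtJ and was 11.6 kb without it.

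For genes beside the clusters, shares were taken over whole spans, which does not locate where this chromatin ended. Of 15 neighbouring genes, 3 had at least 50% of their bins in state 13 in every strain and 11 had a bin of states 1, 2 or 3 in every strain. Evx1 (99.5%) and Evx2 (91.3%), homeobox genes next to Hoxa13 and Hoxd13, had the highest mean shares of state 13. Atp5g3, a subunit of the mitochondrial ATP synthase, and Calcoco1 were at 0%. Of 9 noncoding genes inside the clusters, 6 had at least 50% of their bins in state 13 in every strain. Mir196a-1 and Mir196a-2, microRNAs that target Hox messages, were at 100%. Mir10b (35.98%) and Hotairm1 (61.3%), a noncoding RNA of the anterior Hoxa cluster, were lowest.

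Related regulators were read the same way. Of 6 ParaHox genes, the evolutionary sisters of the Hox clusters, 3 had at least 50% of their bins in state 13 in every strain. Pdx1, the pancreatic regulator, was at 100% and Gsx2 at 93.8%, while Cdx1 was at 18.5% and Cdx4 at 51.0%. Of 29 other developmental regulators, 17 met the same mark and 26 had a bin of state 10 or 12 in every strain. Sox14 (98.6%) and Sox1 (98.1%) had the highest shares in that list, and Gsc (21.5%) and Irx3 (23.4%) the lowest. The TALE proteins, which bind DNA together with Hox proteins, met the mark in 0 of 9 genes, beside 5.88% of all genes, and 8 had a bin of states 1, 2 or 3 in every strain, beside 56.9%. Pbx2 and Pknox1 were at 0%, and Meis3 (53.0%) and Pknox2 (13.5%) were highest. Of 22 Polycomb genes, 1 met the mark, beside 5.88% of all genes, and 21 had a bin of states 1, 2 or 3 in every strain, beside 56.9%. Rbbp7 (77.4%), which lies on chromosome X, and Cbx6 (34.1%) were highest, and Cbx2 was at 0%. Of 10 trithorax genes, 0 met the mark and 10 had such a bin, beside the same 5.88% and 56.9% of all genes. Kdm6a (2.76%) and Kdm6b (0.513%) were highest, and Ash2l and Dpy30 were at 0%.

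The marker lists for liver cell types were read in the same way. Among hepatocyte markers Cyp2e1 (3.36%) had the highest share of state 13, and Alb and Apoa1 were at 0%. The 50% mark was met by 1 of 7 Kupffer cell and leukocyte markers, Vsig4 on chromosome X at 100%, with Adgre1 at 58.7%, Cd3e at 9.06% and Csf1r at 0%. It was met by 0 of 5 endothelial markers, where Kdr (56.7%) and Cdh5 (12.6%) were highest and Lyve1 and Pecam1 were at 0%. It was met by 0 of 6 stellate cell and fibroblast markers, with Col1a1 (83.5%) and Des (57.7%) highest and Reln (0.144%) and Dcn (12.1%) lowest. Of 5 bile duct markers 1 met it, Krt19 (64.7%). Krt7 (77.7%) was higher on average but was at 18.4% in its lowest strain, and Sox9 (9.26%) and Epcam (13.7%) were lowest.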

How the data were processed

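The files hold 1 chromatin state segmentation per strain. Per the file headers, each deposited interval carries a state number, which is a category and not a count, signal or score. The submitters' processing notes name the mouse build mm10, FastQC 0.11.5 and MACS 1.4.2 with no role. The aligner, the segmentation tool and the depth are not given in the sources used here, so no counting error can be given. Each segmentation was read as states of 200-bp bins on chromosomes 1 to 19 and X, with columns joined to strains by the labels. Gene spans and start sites came from RefSeq tables of GRCm38.p6, the assembly that mm10 names. All 38 genes matched by symbol and 22 had a listed start.

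Shares of bins were computed with Python 3.11.15, numpy 2.4.6 and pandas 2.3.3. Tests were exact two-sided sign-flip permutation tests over the 9 strains (512 sign patterns), with Benjamini-Hochberg adjustment over 6 pairs of loci and a threshold of 0.05. The code was tested on simulated data. Values of lists and single genes carry no test. The genes, the lists and the states compared were chosen with earlier results of these data known. Named genes are the Hox genes with the 6 lowest and 3 highest mean shares of state 13, the 5 highest and 2 lowest differences between strains, and the 2 highest and 2 lowest of each list, of which 1 gene is not reported here. Alternatives were other paddings (none, 5 kb), windows of 1 kb at gene ends or starts, 1000-bp bins, merged states, other thresholds and leaving out strains. A file that joins the strain segmentations end to end was identical to them and was not used otherwise. Chromosome Y was not analysed here.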

Additional observations from a re-analysis of the deposited data

Results flagged for a closer look

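Of 32 sets of 9 strain values tested for a single strain far from the others, 7 had a gap past Dixon's critical value for 9 values. Chance flags about 1 in 20 sets that vary freely, but this does not hold for sets with most strains at 0% or 100%, where any single departing strain passes: those of Hoxc11 and of states 5, 7 or 11 in Hoxc and Hoxd are of this kind. The sets also overlap, since the same bins enter several of them. In Hoxb, PWK/PhJ had 19.9% of bins in states 5, 7 or 11, with the other strains between 0.398% and 9.16%. In the same cluster PWK/PhJ differed from the other strains in 21.5% of bins on average, with the others between 12.1% and 15.2%. In Hoxc, NOD/ShiLtJ had 2.08% of bins in states 5, 7 or 11, with the others between 0% and 0.625%. These NOD/ShiLtJ bins lay at Hoxc6, where 11.2% of its bins were in these states. In Hoxd, NZO/HlLtJ had 0.664% in states 5, 7 or 11, with the others between 0% and 0.221%, and these bins lay at Hoxd9. A/J differed from the other strains in 8.93% of Hoxd bins, less than the rest, which lay between 10.5% and 11.7%. Hoxc11 was at 87.5% in state 13 in CAST/EiJ and at 100% in the other 8 strains. The longest unbroken stretch of states 5, 7 and 10 to 13 over Hoxd was 112 kb in NOD/ShiLtJ, with the others between 161 kb and 191 kb, since states 6 and 14 interrupted it at Hoxd8. What lies behind these values was not tested.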

How the results depend on the processing

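No paired analysis was possible because the numbered mice of a strain are joined in 1 segmentation; the tests between loci are within strains. The files give no depth and no error within a strain, so no value can be weighed by its precision. Of the recomputed values for clusters and for counts of Hox genes, 357 kept their direction and their side of the threshold or moved by less than the spread, and those that did not are given here; the cause was not tested except where the setting itself changes what is counted. Differences are in percentage points with exact permutation tests.

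With states 10, 12 and 13 merged, which changes the quantity, Hoxa minus Hoxb became -0.329, Hoxb minus Hoxc -5.78 (passed), Hoxb minus Hoxd -5.80 and Hoxc minus Hoxd -0.0138. Over the union of the members' spans in place of whole loci, the state 13 difference was -6.17 for Hoxb minus Hoxc, which then passed, and 2.79 for Hoxb minus Hoxd, which did not, and in states 10 or 12 Hoxb minus Hoxc was -0.237. With no padding Hoxb minus Hoxc passed at -3.35. With 1000-bp bins Hoxa minus Hoxd (-3.78) and Hoxb minus Hoxd (4.44) no longer passed, nor did the latter with 5 kb padding (4.40). Leaving out 1 strain at a time gave 4.05 (without NOD/ShiLtJ) to 6.42 (without PWK/PhJ) for Hoxb minus Hoxd, which passed only in the latter case.

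In start windows, which exist for 22 genes, the share of state 13 was 63.1% in Hoxa, 73.7% in Hoxd and 86.9% at Hoxc4, the single Hoxc gene with a listed start, and in gene-end windows 72.2% in Hoxa and 88.9% in Hoxc. The count of genes with at least 50% of bins in state 13 in every strain was 12 of 22 in start windows, beside 6.04% of all genes with one, and 19 of 38 when the mark was 75%, beside 735 of 21627 genes. A bin of state 10 or 12 in every strain was in 11 of 22 start windows, beside 6.08%. A gap of 50 points between strains was found at 6 of 22 genes in start windows, beside 14.8%, at 4 of 38 in gene-end windows, beside 13.2%, and 0 (without PWK/PhJ) to 1 when 1 strain was left out.

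The median difference between strains over all 38 genes was 6.65% when a match within 1 bin counted as alike, 0.250% with states 10, 12 and 13 merged, 11.5% with no padding, 11.6% in gene-end windows, 13.9% in start windows, 11.1% without CAST/EiJ, PWK/PhJ and WSB/EiJ together, and 11.2% to 13.1% when 1 strain was left out. In the same order of settings, Hoxa gave 11.4%, 6.78%, 19.3% and 19.1%, and 15.3% without the 3 strains. Hoxb gave 14.1% with a match within 1 bin, 8.47% with merged states, 0% in start windows and 14.5% to 20.2% when 1 strain was left out. Hoxc gave 2.08%, 0%, 5.86%, 5.81% and 7.58% under the first 5 settings. Hoxd gave 6.99% with a match within 1 bin, 0% with merged states and 7.32% in gene-end windows.

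Among single genes and counts over all genes, 22 values moved by more than the spread or by over 1.5 times. The share of state 13 at Hoxa2 was 36.4% in its start window. At Hoxd4 it was 100% in the start window and 95.5% in gene-end windows, and at Hoxd13 it was 75.9% with no padding. The count of all genes with at least 50% of bins in state 13 became 2170 at 25%, that with a bin of state 10 or 12 became 1341 in gene-end and 1050 in start windows, and that with a gap of 50 points became 2852 in gene-end windows.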
